A study of Mus musculus with 16 samples.

Results

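Acute phase proteins are plasma proteins that the liver makes in changed amounts during inflammation and tissue injury. The 10 proteins examined here were followed as transcripts in mouse liver with and without the histone chaperone HIRA. They include the constitutive Saa4, and Saa3, which cells other than hepatocytes make as well. Their genes were taken by symbol from the count table, which held 55421 gene IDs, and each of the 10 symbols matched 1 row. All 10 passed the filter on low counts, among 23018 genes that did. They are the serum amyloid A genes Saa1, Saa2, Saa3 and Saa4, the orosomucoid genes Orm1 and Orm2, the lipocalin gene Lcn2, the haptoglobin gene Hp, and the pentraxin genes Crp and Apcs.

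Poly-A RNA from whole liver of male C57BL/6 mice had been sequenced in 16 libraries, 4 in each of 4 groups. Control mice were wildtype and had received, at 6 months of age, either AAV8 Tbg-Cre or AAV8-Tbg-saCAS9/U6-sgRNA-Rosa26. HIRA KO mice were HIRA fl/fl given AAV8 Tbg-Cre or wildtype given AAV8-Tbg-saCAS9/U6-sgRNA-HIRA, with 2 libraries of each kind per group, so every mouse carried a virus. At 4 weeks from injection a partial hepatectomy gave the sample before regeneration, and the remnant collected 5 days after surgery gave the sample after it. Deletion was driven by the Tbg promoter and is therefore aimed at hepatocytes, and Kupffer, endothelial and other cells of the same tissue are not its target. No group with sham surgery was analysed here, and the time point, the surgery and the lobe sampled cannot be told apart. The columns of the tables do not name the deletion approach or the mouse, so libraries are called by the running number of their column within a group.

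Total counts ran from 15103059 to 21738619 per library, with a median of 18337571. Hira transcripts were at 5.21 to 6.18 CPM (counts scaled to a common library size, with TMM factors) in the 4 control libraries before regeneration and 3.13 to 4.38 in the HIRA KO libraries, and at 4.99 to 6.29 and 3.04 to 4.56 after it, so no HIRA KO library reached a control library. The log2 fold change of Hira was -0.70 ± 0.17 (SE, n = 4 per group) before and -0.69 ± 0.17 after regeneration, with adjusted p of 0.129 and 0.0666. All 10 hepatocyte markers were detected, with a summed level of 13823 to 38182 CPM over the libraries. HIRA KO libraries 1 and 2 stood apart from the other libraries on the second principal component (26.5% of variance), at -47.4 and -36.6 before and -40.2 and -36.2 after regeneration. Control before library 3 stood apart in the acute phase genes themselves, as described below each gene. Many results that rest on these libraries are given with and without them.

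The acute phase response is the change in liver secretion that follows infection, injury or surgery. Interleukin-6 acts on hepatocytes through the receptor Il6ra and its partner Il6st and through the factor Stat3, interleukin-1 acts through NF-kB, and both act together with C/EBP factors on the promoters of acute phase genes. Positive acute phase proteins rise, and negative ones such as albumin and transthyretin fall. In the mouse, Saa1, Saa2 and the pentraxin Apcs (serum amyloid P component) are the classical strong responders, whereas Crp, the main responder in humans, is a minor one, and Saa4 is a constitutive lipoprotein component.

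The 5 genes Orm1, Orm2, Lcn2, Hp and Apcs rose after regeneration in both genotypes in the edgeR test with all libraries. In control, Lcn2 and Hp each passed that test in only 2 of 8 fits that left out 1 library. In HIRA KO, Hp passed it in 4 of 8 such fits. Without HIRA KO libraries 1 and 2, only Orm1 and Orm2 passed it in HIRA KO. Orm2 rose 23.3-fold and Lcn2 18.0-fold in control liver, against 2.88-fold for Orm1 and 2.34-fold for Hp. The folds without control before library 3 were 42.8 for Orm2 and 110 for Lcn2, so that their order turned, and 3.69 for Orm1 and 2.83 for Hp. Saa1 and Saa2 were also at high levels after regeneration, but a single control library before regeneration was as high, and their change in control did not pass the edgeR test with all libraries. It passed without that library, or with all libraries in limma on FPKM. In HIRA KO neither gene passed the edgeR test with all libraries (adjusted p of 0.127 and 0.113). DESeq2 and limma on FPKM called both there. Saa4 and Crp did not pass the test in either genotype. No acute phase gene passed the test for a difference between HIRA KO and control at either time. After regeneration, 9 of the 10 fitted values lay below 0.

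Several of these genes lie side by side. Saa3, Saa4, Saa1 and Saa2 occupy 42316 bases of chromosome 7 (46711998 to 46754313, GRCm38), in that order. Orm1, Orm3 and Orm2 occupy 21319 bases of chromosome 4 (63344560 to 63365878). Crp and Apcs lie within 196987 bases of chromosome 1 (172698055 to 172895041), Lcn2 on chromosome 2 (32384633 to 32388252) and Hp on chromosome 8 (109575128 to 109579172). The coding sequences of Saa1 and Saa2 were identical at 95.1% of 366 aligned positions, with an unbroken identical stretch of 73 bases, those of Saa1 and Saa3 at 74.3%, and those of Saa1 and Saa4 at 64.4%. Orm1 and Orm2 were identical at 89.9%, with a stretch of 104 bases. Counts of Saa1 against Saa2, and of the Orm genes against each other, are therefore uncertain where a read could come from either, and their sums are given too. The exons of 0 of the 10 genes overlapped exons of another annotated gene on either strand.

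The promoters of the serum amyloid A genes and of Orm2 are shown because Saa1 and Saa2 stood beside the steadier Saa4 and the low Saa3, and Orm2 beside Orm1, within short stretches of the genome. Each is the stretch from 250 bases before the RefSeq transcript start (GRCm38.p6), 5′ to 3′ on the strand of the gene, without bases that lie in an annotated exon. Capitals mark matches, on either strand, to a C/EBP motif (TTNNGNAA), a STAT motif (TTCNNNGAA) or an NF-kB motif, and overlapping matches run together. 
Saa1, chr7:46742981-46743230, reverse strand: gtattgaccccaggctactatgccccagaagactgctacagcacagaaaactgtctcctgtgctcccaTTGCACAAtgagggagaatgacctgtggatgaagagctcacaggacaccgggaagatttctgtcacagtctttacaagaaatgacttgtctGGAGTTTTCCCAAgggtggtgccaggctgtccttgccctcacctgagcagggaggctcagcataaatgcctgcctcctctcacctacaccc
Saa2, chr7:46751583-46751789, forward strand: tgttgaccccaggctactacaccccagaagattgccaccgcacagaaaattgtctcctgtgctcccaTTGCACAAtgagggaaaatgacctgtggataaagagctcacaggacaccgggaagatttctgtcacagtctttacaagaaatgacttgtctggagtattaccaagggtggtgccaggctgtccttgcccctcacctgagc
Saa3, chr7:46715701-46715926, reverse strand: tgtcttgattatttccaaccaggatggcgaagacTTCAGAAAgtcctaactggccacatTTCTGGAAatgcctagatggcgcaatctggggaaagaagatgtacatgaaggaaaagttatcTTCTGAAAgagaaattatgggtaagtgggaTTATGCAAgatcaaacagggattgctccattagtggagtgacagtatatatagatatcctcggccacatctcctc
Saa4, chr7:46732604-46732853, reverse strand: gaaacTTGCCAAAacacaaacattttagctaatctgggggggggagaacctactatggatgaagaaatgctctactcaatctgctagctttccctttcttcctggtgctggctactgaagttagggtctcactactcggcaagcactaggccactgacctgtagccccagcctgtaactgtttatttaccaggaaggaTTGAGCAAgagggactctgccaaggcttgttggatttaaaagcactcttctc
Orm2, chr4:63362199-63362448, forward strand: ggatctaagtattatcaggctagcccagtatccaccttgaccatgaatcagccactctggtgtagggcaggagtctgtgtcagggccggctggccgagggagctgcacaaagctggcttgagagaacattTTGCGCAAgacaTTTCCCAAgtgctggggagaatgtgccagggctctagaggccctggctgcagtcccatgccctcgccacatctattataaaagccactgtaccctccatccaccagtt

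Of the 10 genes, 8 had a promoter in the RefSeq table used, and Orm1 and Hp had none there. A C/EBP match lay in the 250 bases of 7 of the 8, against 36.9% of 32841 promoters of the same length. The STAT motif was matched in 1 (Apcs), against 7.02%, and the NF-kB motif in 2 (Saa1 and Lcn2), against 9.55%. In Saa1 the NF-kB match spans 91 to 82 bases before the start and overlaps a C/EBP match at 86 to 79, and a further C/EBP match lies at 182 to 175. In Saa2 the corresponding C/EBP match lies at 183 to 176, and no other match was found in these letters, although the windows of Saa1 and Saa2 were identical at 94.8% of aligned positions. Saa3 held 4 C/EBP matches and was identical with Saa1 at 48.2%. A match is a description of letters and says nothing about binding.

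**Figure D1:**
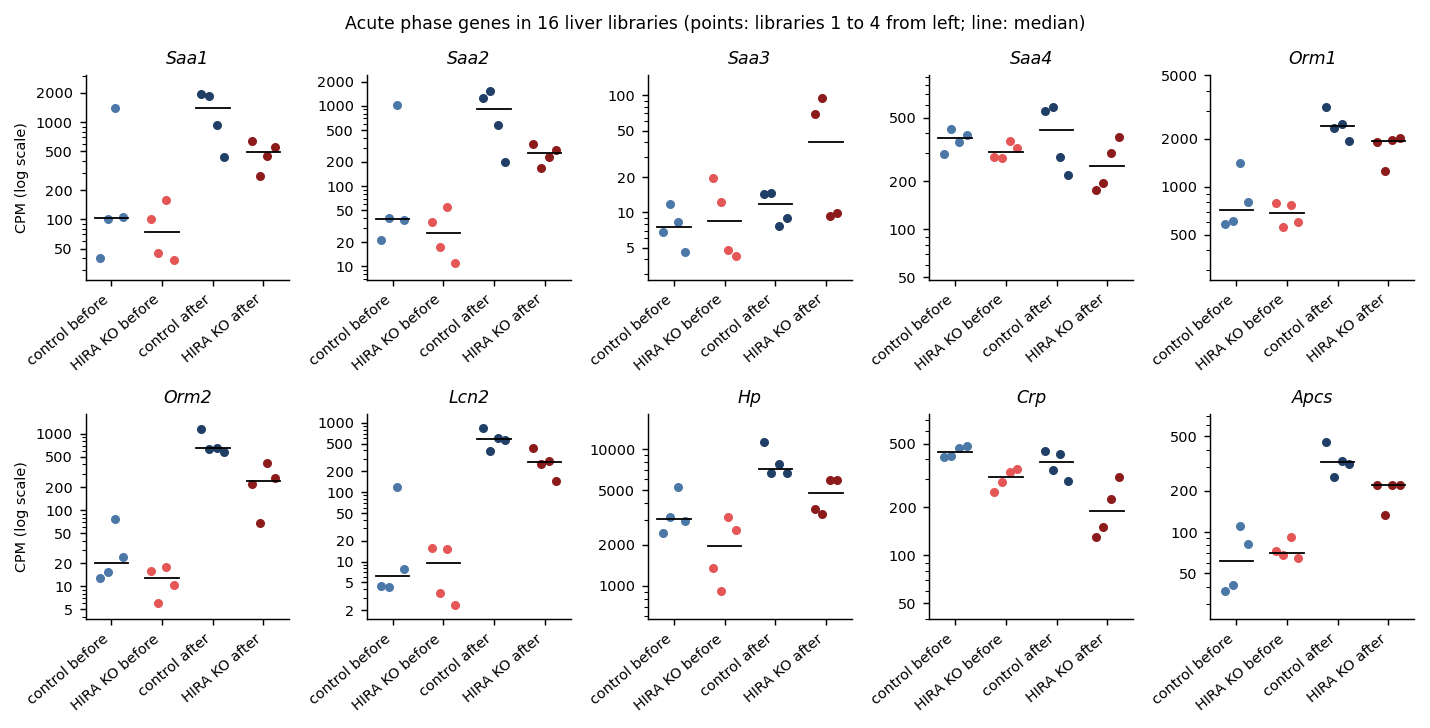
Level of each acute phase gene in each library, in CPM on a log axis, by group. Points are the 4 libraries of a group, numbered from left to right, and lines are group medians. Control before library 3 reaches 1400 CPM for Saa1 and 118 CPM for Lcn2, where the other 3 control libraries before regeneration lie at or below 106 and 7.81 CPM.

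Counted over the 10 genes, 5 were called higher and 0 lower after regeneration in control (edgeR quasi-likelihood test, adjusted p under 0.05 over all genes tested), where 6.04% of all genes tested were called higher and 4.17% lower. In HIRA KO the same 5 genes were called higher and 0 lower, against 6.48% and 5.53% of all genes. Before regeneration, 0 of the 10 were called higher or lower in HIRA KO against control, against 0.0348% and 0.00434% of all genes. After regeneration the counts were again 0 and 0, against 0.200% and 0.291%. For the interaction of genotype and time (the HIRA KO effect after minus that before regeneration), 0 of the 10 and 0% of all genes were called. At unadjusted p under 0.05, edgeR gave 5 of the 10 for HIRA KO before, 6 for HIRA KO after and 0 for the interaction. Of all genes, 13.2%, 15.8% and 6.81% had such a p. Those before regeneration were Saa1, Saa2, Orm2, Hp and Crp, with log2 fold changes of -2.27, -3.25, -1.36, -0.79 and -0.55. Without control before library 3 these were 0.05, -0.16, -0.48, -0.52 and -0.52, so the count rested in part on that library. DESeq2 called 0 of the 10 for HIRA KO before, where it called 2.49% of all genes with an adjusted p, and 0 for the interaction, against 0.424%. For HIRA KO after it called 1 lower (Crp), against 2.73% of all genes with an adjusted p. For regeneration in HIRA KO it called 8 of the 10 higher, against 10.4% of all genes with an adjusted p. The comparisons share libraries, each group entering 2 of them, and are set side by side only.

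Groups did not overlap for 5 of the 10 genes after against before regeneration in control, against 19.0% of all genes, and for 7 in HIRA KO, against 16.1%. All of these were higher after regeneration. HIRA KO and control did not overlap for 1 gene before regeneration (Crp), against 8.07% of all genes, and for 3 after it (Orm2, Hp and Apcs), against 8.10%, and all of these were lower in HIRA KO. The median log2 fold change of the 10 genes was 1.59 after regeneration in control and 1.78 in HIRA KO, beside 0.0029 and 0.019 over all genes tested. It was -0.67 for HIRA KO against control before and -0.83 after regeneration, beside 0.0094 and 0.022 over all genes. The median before regeneration rested on control before library 3 and was -0.063 without it, with 5 of the 10 values below 0, and the median for regeneration in control was then 2.28. Without HIRA KO libraries 1 and 2 the median after regeneration was -0.54. Together the 10 genes took 0.381% to 0.967% of all counts in control before regeneration and 0.216% to 0.487% in HIRA KO, and 1.21% to 1.93% and 0.615% to 1.08% after it. In bulk tissue, fewer cells of a type and less RNA per cell cannot be told apart.

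**Figure D2:**
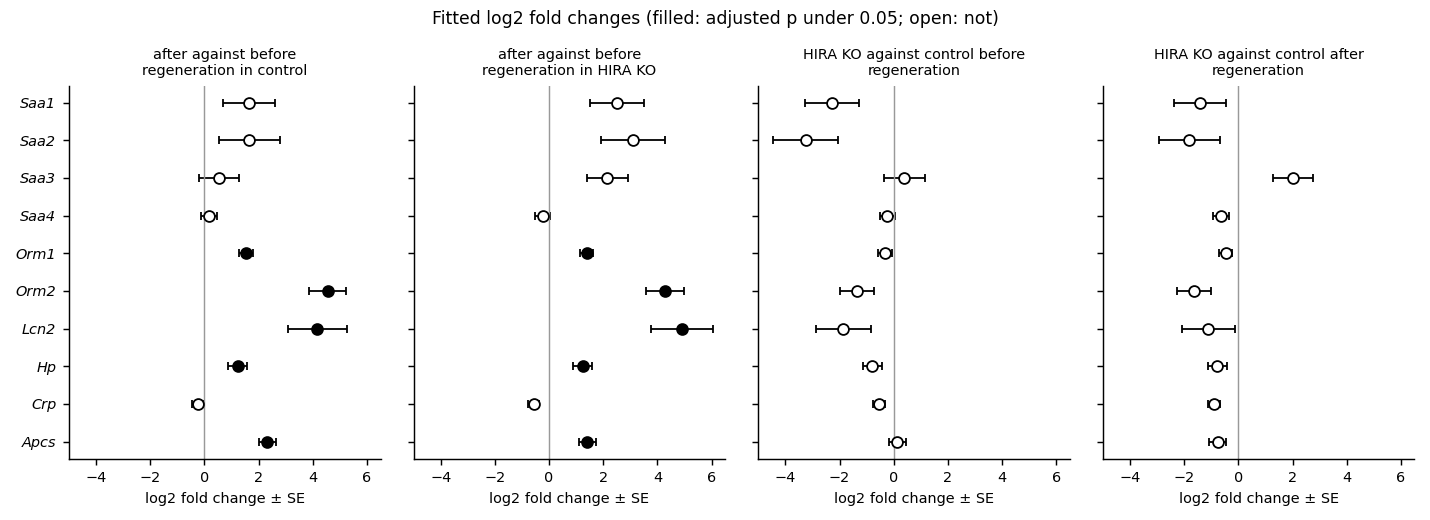
Log2 fold change with its standard error for each gene in 4 comparisons, from edgeR. Filled points passed an adjusted p of 0.05. Orm1, Orm2, Lcn2, Hp and Apcs are filled in both comparisons of regeneration, and no point is filled in the comparisons of HIRA KO with control.

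Saa1 and Saa2 encode the acute phase serum amyloid A proteins, which travel on high-density lipoprotein. Saa1 was at 40.1, 101, 1400 and 106 CPM in control before libraries 1 to 4 and at 101, 45.3, 156 and 38.3 CPM in HIRA KO. After regeneration it was at 1928, 1858, 934 and 438 CPM in control and 646, 279, 445 and 549 CPM in HIRA KO. Control before library 3 thus lay among the control libraries after regeneration, while all HIRA KO libraries after regeneration lay above all those before it. Saa2 was at 21.3, 40.2, 1025 and 37.5 CPM in control and 35.3, 17.5, 54.7 and 11.0 CPM in HIRA KO before regeneration. After it, Saa2 was at 1248, 1532, 573 and 201 CPM in control and 336, 166, 232 and 280 CPM in HIRA KO. The order of libraries was nearly that of Saa1, with which Saa2 correlated at r = 0.994 over the 16 libraries, which share groups and, for this pair, near-identical sequence.

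In control, Saa1 gave a log2 fold change after against before regeneration of 1.65 ± 0.96 (SE, n = 4 per group, adjusted p = 0.341) and Saa2 one of 1.66 ± 1.12 (adjusted p = 0.421). Without control before library 3 these were 3.97 ± 0.68 (adjusted p = 0.0044) and 4.75 ± 0.77 (adjusted p = 0.0036). With all libraries, limma on log2(FPKM + 1) called Saa1 (3.06, adjusted p = 0.0407) and Saa2 (3.34, adjusted p = 0.0470) in control, as it did on log2(FPKM + 0.1). In HIRA KO, Saa1 gave 2.49 ± 0.99 (adjusted p = 0.127) and Saa2 3.10 ± 1.19 (adjusted p = 0.113), and each was called in 4 of 10 planned settings. Those were DESeq2 (adjusted p of 0.0423 and 0.0189), a fit of only the groups compared (0.0233 and 0.0128), and limma on log2(FPKM + 1) (0.0499 and 0.0395) and on log2(FPKM + 0.1) (0.0443 and 0.0341). HIRA KO against control gave -2.27 ± 0.99 (adjusted p = 0.354) for Saa1 and -3.25 ± 1.20 (adjusted p = 0.293) for Saa2 before regeneration. Without control before library 3 the same differences were 0.05 ± 0.58 and -0.16 ± 0.63, and thus rested on that library. After regeneration the differences were -1.43 ± 0.96 (adjusted p = 0.514) and -1.81 ± 1.12 (adjusted p = 0.471), with overlapping groups. The sum of both genes gave 1.65 ± 1.02 (adjusted p = 0.371) for regeneration in control and 2.67 ± 1.06 (adjusted p = 0.123) in HIRA KO. Among the 10 planned settings, the setting that summed near-identical genes used this sum for both Saa1 and Saa2.

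Saa3 encodes a serum amyloid A made in macrophages, adipocytes and other cells outside of hepatocytes as well as in liver. It was at 6.76, 11.7, 8.30 and 4.62 CPM in control and 19.7, 12.2, 4.76 and 4.26 CPM in HIRA KO before regeneration. After it, Saa3 was at 14.4, 14.7, 7.63 and 9.03 CPM in control and 69.6, 94.1, 9.25 and 9.96 CPM in HIRA KO. The 2 high values belong to HIRA KO libraries 1 and 2, and after regeneration the other HIRA KO libraries lay within the control range. The log2 fold change for HIRA KO against control after regeneration was 2.00 ± 0.74 (adjusted p = 0.210) and was -0.23 without HIRA KO libraries 1 and 2. Before regeneration it was 0.39 ± 0.75 (adjusted p = 0.870), and -0.80 without those libraries. After against before regeneration, Saa3 gave 0.54 ± 0.75 (adjusted p = 0.745) in control and 2.15 ± 0.75 (adjusted p = 0.0823) in HIRA KO. The latter was called with all libraries by DESeq2 (2.16, adjusted p = 0.0163), with edgeR's own filter (2.17, adjusted p = 0.0438) and without robust shrinkage (2.15, adjusted p = 0.0427). It was also called without HIRA KO after library 3 (2.51, adjusted p = 0.0454) or 4 (2.50, adjusted p = 0.0381), and was 1.11 (adjusted p = 0.110) without HIRA KO libraries 1 and 2.

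Beside the Saa3 values, the summed level of 12 neutrophil markers was 33.2, 22.3, 15.8 and 14.1 CPM in HIRA KO after libraries 1 to 4 and 13.8 to 23.5 CPM in control after. Before regeneration it was 28.2, 14.7, 11.1 and 3.63 CPM in HIRA KO and 5.50 to 10.2 CPM in control. The 12 Kupffer cell and macrophage markers summed to 961, 853, 1073 and 1218 CPM in HIRA KO after, and the adipocyte markers to 11.2 to 20.1 CPM. Stellate cell and fibroblast markers summed to 397, 354, 223 and 237 CPM in HIRA KO before regeneration and 196 to 229 CPM in control. After it they summed to 332, 259, 238 and 231 CPM in HIRA KO and 132 to 254 CPM in control. None of these markers was at 0 in every library, and their part in the Saa3 values was not tested.

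Saa4, the constitutive serum amyloid A, was at 294 to 422 CPM in control and 279 to 357 CPM in HIRA KO before regeneration. It was at 553, 581, 284 and 220 CPM in control and 176, 195, 302 and 379 CPM in HIRA KO after it, so the groups overlapped at both times. The log2 fold change after against before regeneration was 0.17 ± 0.29 (adjusted p = 0.800) in control and -0.24 ± 0.29 (adjusted p = 0.649) in HIRA KO. For genotype, Saa4 gave -0.23 ± 0.29 (adjusted p = 0.784) before and -0.64 ± 0.29 (adjusted p = 0.294) after regeneration. Without HIRA KO libraries 1 and 2 these were -0.099 and -0.25. The ratio of Saa1 to Saa4 counts within a library was 0.119 to 0.438 in HIRA KO before and 1.43 to 3.67 after regeneration. In control it was 1.99 to 3.48 after and 0.136, 0.240, 3.98 and 0.272 before, and again library 3 was the high one.

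**Figure D3:**
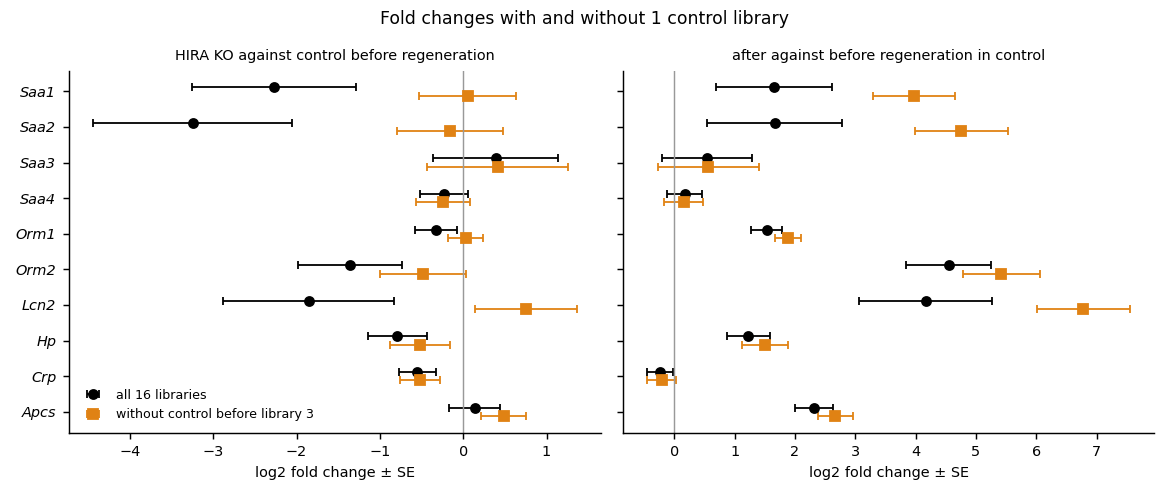
Log2 fold change with its standard error for each gene, from edgeR, with all libraries (circles) and without control before library 3 (squares). For HIRA KO against control before regeneration, Saa1 moves from -2.27 to 0.05 and Lcn2 from -1.86 to 0.75, and for regeneration in control Saa1 moves from 1.65 to 3.97.

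Orm1 and Orm2 encode orosomucoids (alpha-1-acid glycoproteins), which bind basic drugs and steroids in plasma. Orm2 was at 12.8, 15.7, 76.0 and 24.4 CPM in control and 15.8, 6.00, 18.1 and 10.3 CPM in HIRA KO before regeneration. After it, Orm2 was at 1141, 624, 660 and 581 CPM in control and 219, 68.1, 418 and 266 CPM in HIRA KO. Every library after regeneration lay above every library of its genotype before it, and after regeneration every HIRA KO library lay below every control library. The log2 fold change after against before regeneration was 4.55 ± 0.70 (adjusted p = 0.0017) in control and 4.27 ± 0.69 (adjusted p = 0.0022) in HIRA KO, and the former was 5.42 without control before library 3. In HIRA KO it was 4.61 (adjusted p = 0.0205) without HIRA KO libraries 1 and 2. The effect of HIRA KO on Orm2 was -1.36 ± 0.63 (adjusted p = 0.379) before and -1.63 ± 0.62 (adjusted p = 0.219) after regeneration. Without control before library 3 the difference before regeneration was -0.48. Without HIRA KO libraries 1 and 2 the difference was -1.18 before and -1.11 after regeneration.

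Orm1 was the more abundant of the pair in every library. It was at 586, 615, 1408 and 810 CPM in control and 789, 564, 774 and 605 CPM in HIRA KO before regeneration, and at 3151, 2322, 2459 and 1923 CPM in control and 1895, 1262, 1950 and 2024 CPM in HIRA KO after it. It rose with a log2 fold change of 1.53 ± 0.26 (adjusted p = 0.0013) in control and 1.38 ± 0.25 (adjusted p = 0.0023) in HIRA KO, with no overlap of the groups, and the value in HIRA KO was 1.54 (adjusted p = 0.0247) without HIRA KO libraries 1 and 2. The effect of HIRA KO on Orm1 was -0.32 ± 0.25 (adjusted p = 0.612) before and -0.47 ± 0.25 (adjusted p = 0.376) after regeneration, and 0.03 before regeneration without control before library 3. The summed counts of Orm1, Orm2 and their neighbour Orm3 rose by a log2 fold change of 1.86 ± 0.28 (adjusted p = 0.00062) in control and 1.54 ± 0.27 (adjusted p = 0.0018) in HIRA KO. For HIRA KO against control the sum gave -0.35 ± 0.27 (adjusted p = 0.607) before and -0.67 ± 0.27 (adjusted p = 0.227) after regeneration.

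Because both genes have exons of 775 bases in total, their count ratio is also a ratio per length. Orm1 counts were 45.8, 39.3, 18.5 and 33.1 times those of Orm2 in control and 49.9, 94.0, 42.8 and 58.5 times in HIRA KO before regeneration. Control libraries after it had ratios of 2.76, 3.72, 3.73 and 3.31, and HIRA KO libraries ratios of 8.67, 18.5, 4.66 and 7.61. The ratio was thus lower after regeneration than before it in each genotype, and the HIRA KO libraries lay above the control libraries at the later time without overlap. In the deposited FPKM the ratio was 13.2 to 25.2 in control and 26.4 to 39.4 in HIRA KO before regeneration. After it, the FPKM ratio was 2.47 to 3.27 in control and 3.92 to 12.1 in HIRA KO. The genotypes thus did not overlap in FPKM ratio at either time, whereas their count ratios overlapped before regeneration. In every library the FPKM ratio was below the count ratio, and the reason was not tested. The ratio of Saa1 to Saa2 counts moved less, from 1.37 to 2.81 in control and 2.58 to 3.49 in HIRA KO before to 1.21 to 2.18 and 1.68 to 1.96 after regeneration.

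**Figure D4:**
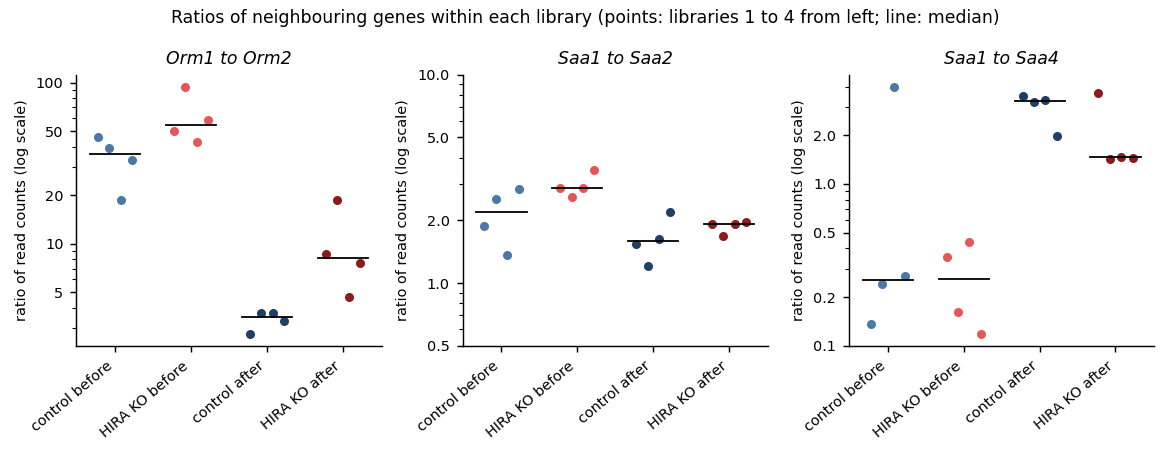
Ratio of the read counts of 2 neighbouring genes in each library, on log axes, by group. Points are the 4 libraries of a group from left to right and lines are medians. Orm1 to Orm2 falls from 18.5 to 45.8 in control before regeneration to 2.76 to 3.73 after it, and lies at 4.66 to 18.5 in HIRA KO after regeneration.

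Lcn2 encodes lipocalin 2, which binds bacterial siderophores and is made by hepatocytes and by neutrophils. It was at 4.38, 4.36, 118 and 7.81 CPM in control and 15.7, 3.53, 15.4 and 2.38 CPM in HIRA KO before regeneration. After it, Lcn2 was at 843, 398, 600 and 574 CPM in control and 428, 258, 283 and 145 CPM in HIRA KO. All libraries after regeneration lay above all libraries before it, and control and HIRA KO overlapped at both times. The log2 fold change was 4.17 ± 1.10 (adjusted p = 0.0302) in control and 4.91 ± 1.15 (adjusted p = 0.0168) in HIRA KO, that is 18.0-fold and 30.1-fold. In control it was 6.78 ± 0.77 (adjusted p = 0.00052) without control before library 3. The call in control held in 2 of 8 fits that left out 1 library: it was lost without control before library 1, 2 or 4 or control after library 1, 3 or 4, at an adjusted p of up to 0.0793. The call in HIRA KO held in 7 of 8 and was lost without HIRA KO before library 4 (4.59, adjusted p = 0.0505) and without HIRA KO libraries 1 and 2 at both times (4.62, adjusted p = 0.162). HIRA KO against control gave -1.86 ± 1.03 (adjusted p = 0.466) before regeneration, 0.75 without control before library 3, and -1.12 ± 0.98 (adjusted p = 0.634) after regeneration.

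Over the neutrophil markers, 3 of 12 rose after regeneration in each genotype. Of all genes tested, 6.04% rose in control and 6.48% in HIRA KO. The neutrophil markers summed to at most 33.2 CPM in any library, and Lcn2 was at 145 to 843 CPM after regeneration. In control before library 3, where Lcn2 was at 118 CPM, the neutrophil markers summed to 5.50 CPM, the lowest of the 4 control libraries before regeneration. Its Kupffer cell and macrophage markers summed to 496 CPM, the highest of the 4, against 184 to 401 CPM in the others. Marker sums do not measure how much Lcn2 a cell type makes, and the part of these cells was not tested.

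Hp encodes haptoglobin, the plasma protein that binds free haemoglobin, and was the most abundant of the 10 genes per length in every group. It was at 2441, 3188, 5253 and 2977 CPM in control and 1350, 910, 3197 and 2554 CPM in HIRA KO before regeneration. After it, Hp was at 11345, 6668, 7756 and 6642 CPM in control and 3653, 3331, 5908 and 5961 CPM in HIRA KO. In each genotype the libraries after regeneration lay above those before it, and at the later time every HIRA KO value was under every control value. Hp rose with a log2 fold change of 1.23 ± 0.36 (adjusted p = 0.0380) in control and 1.23 ± 0.36 (adjusted p = 0.0343) in HIRA KO. The call in control held in 2 of 8 fits without 1 library and was lost without control before library 1, 2 or 4 or control after library 1, 3 or 4, at an adjusted p of up to 0.110. The call in HIRA KO held in 4 of 8 and was lost without HIRA KO before library 1 or 2 or HIRA KO after library 3 or 4, at an adjusted p of up to 0.0851. Without HIRA KO libraries 1 and 2 it was 1.06 (adjusted p = 0.0562). The effect of HIRA KO on Hp was -0.79 ± 0.35 (adjusted p = 0.356) before and -0.78 ± 0.35 (adjusted p = 0.294) after regeneration, and -0.27 and -0.43 without HIRA KO libraries 1 and 2.

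Apcs encodes serum amyloid P component, the pentraxin that responds strongly in mice and binds amyloid fibrils and chromatin. It was at 37.2, 41.2, 111 and 81.7 CPM in control and 73.3, 68.0, 91.7 and 65.0 CPM in HIRA KO before regeneration. After it, Apcs was at 456, 251, 330 and 314 CPM in control and 220, 133, 222 and 219 CPM in HIRA KO. The groups before and after regeneration did not overlap in either genotype, and after regeneration the highest HIRA KO library lay below the lowest control library. Apcs rose with a log2 fold change of 2.32 ± 0.32 (adjusted p = 0.00062) in control and 1.42 ± 0.31 (adjusted p = 0.0088) in HIRA KO. In HIRA KO it was 1.51 (adjusted p = 0.0995) without HIRA KO libraries 1 and 2. HIRA KO against control gave 0.14 ± 0.30 (adjusted p = 0.885) before and -0.76 ± 0.30 (adjusted p = 0.232) after regeneration. The difference between these effects was -0.90 ± 0.43 (adjusted p = 0.737), or -1.24 (adjusted p = 0.503) without control before library 3, the former with the smallest unadjusted p of the 10 genes in that comparison (0.0524).

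Crp encodes C-reactive protein. It was at 414, 415, 469 and 479 CPM in control and 250, 289, 330 and 346 CPM in HIRA KO before regeneration. After it, Crp was at 446, 340, 429 and 292 CPM in control and 130, 150, 226 and 309 CPM in HIRA KO. Before regeneration the highest HIRA KO value was under the lowest control value, and after it HIRA KO library 4 lay above control library 4. HIRA KO against control gave a log2 fold change of -0.55 ± 0.22 (adjusted p = 0.308) before and -0.89 ± 0.22 (adjusted p = 0.0704) after regeneration. The latter was called by DESeq2 (-0.86, adjusted p = 0.0077) and without HIRA KO after library 4 (-1.14, adjusted p = 0.0154), and was -0.48 (adjusted p = 0.309) without HIRA KO libraries 1 and 2. After against before regeneration, Crp gave -0.24 ± 0.22 (adjusted p = 0.574) in control and -0.57 ± 0.22 (adjusted p = 0.0963) in HIRA KO. The value in HIRA KO was called without HIRA KO after library 4 (-0.83, adjusted p = 0.0120). Within the 10 genes, Crp was the 1 that stood lower in HIRA KO without overlap before regeneration. Of all genes, 8.07% did not overlap in that comparison, in either direction. Crp was also the least variable of the 10 in control before regeneration, with a coefficient of variation of 7.82%.

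**Figure D5:**
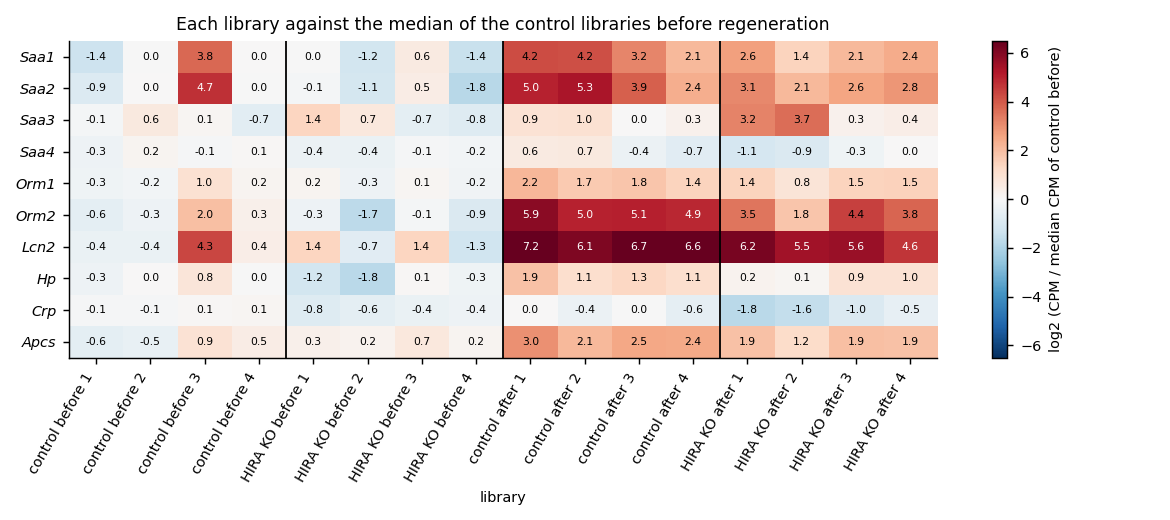
Log2 ratio of each library's CPM to the median CPM of the 4 control libraries before regeneration, by gene (rows) and library (columns). Red is above and blue below that median, and lines separate the groups. Control before library 3 is red for Saa1, Saa2, Orm2 and Lcn2, HIRA KO after libraries 1 and 2 for Saa3, and Crp is below 0 in all HIRA KO libraries.

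The interaction of genotype and time was not called for any of the 10 genes in edgeR, with 0 at an unadjusted p under 0.05 and 0 called by DESeq2. The fitted values were 0.84 ± 1.33 for Saa1, 1.44 ± 1.56 for Saa2, 1.61 ± 1.04 for Saa3 and -0.41 ± 0.41 for Saa4. They were -0.14 ± 0.35 for Orm1, -0.27 ± 0.86 for Orm2, 0.74 ± 1.39 for Lcn2, 0.01 ± 0.50 for Hp and -0.34 ± 0.31 for Crp. The errors for Saa1, Orm1, Orm2, Lcn2, Saa2 and Hp were larger than the values, and a missed threshold does not show for any of the 10 that the effects were alike. Without control before library 3, Saa1 gave -1.46 (adjusted p = 0.804), Saa2 -1.64 (adjusted p = 0.802) and Lcn2 -1.85 (adjusted p = 0.741), with the sign turned.

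Per length, in the deposited FPKM, Hp had rank 1 and Orm1 rank 2 of the 10 genes in each group. Before regeneration the FPKM of Hp was 2241 ± 735 (SD, n = 4) in control and 1381 ± 690 in HIRA KO, rising to 5759 ± 1155 and 3419 ± 937. Saa1 had rank 3 in control before (570 ± 925), control after (2031 ± 1098) and HIRA KO after (792 ± 272), and rank 4, behind Crp, in HIRA KO before (130 ± 86.1 against 156 ± 16.4). These SDs overlap the neighbours in the order. Without control before library 3, Saa1 in control before was at 108 ± 48.1 (SD, n = 3), rank 5, behind Crp (215 ± 9.63) and Saa4 (142 ± 24.9). Lcn2 had rank 9 in control and rank 10 in HIRA KO before regeneration, at 32.0 ± 52.9 and 9.86 ± 7.79, and rank 6 in both after it, at 643 ± 166 and 310 ± 142. It was at 5.55 ± 1.81 in control before, rank 10, below Saa3 (13.4 ± 7.08), when control before library 3 was left out. Saa3 was last in 3 of the 4 groups. When CPM was instead divided by the annotated exon length, which for Saa1 and Saa2 includes a retained intron, Saa1 had rank 4 in both control groups, rank 6 in HIRA KO before and rank 5 in HIRA KO after regeneration.

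Over the 16 libraries, log2(CPM + 1) of Orm1, Orm2, Lcn2 and Apcs moved together, with r from 0.938 (Lcn2 and Apcs) to 0.984 (Orm1 and Orm2). These correlations describe 16 libraries in 4 groups, which share their group means. After removal of the group means the same pairs gave r from 0.685 (Orm2 and Lcn2) to 0.929. Crp correlated with Saa3 at -0.803, or -0.782 after removal of the group means, and with Saa4 at 0.715 and 0.661. Among genes outside the 10, those like Orm1 included Prtn3, Fgl1, Ctsc and Orm3, with r from 0.964 down to 0.954. Those most like Lcn2 were Fgl1, Prtn3, Ctsc, Dnajc12 and Ly6e (0.967 to 0.931), and those most like Apcs were Fgl1, Ctsc, Prtn3, Orm3 and Dnajc12 (0.960 to 0.929). Orm2 was closest to Ehbp1l1, Prtn3, Orm3, Cp and Il18bp (0.967 to 0.942). Saa1 and Saa2 shared Cpb2, Fgl1, Lrg1 and Serpina10 among their 5, the first at r of 0.923 and 0.924. Hp was closest to Itih3, Itih4, C4bp, Ctsz and Ifitm3 (0.943 to 0.921). Crp was closest to Rnft1, Mug2, Slc49a4, Stau1 and Rdh7 (0.952 to 0.943), Saa3 to Myo7b, Acsl4, Numbl, Epdr1 and Pcolce (0.942 to 0.918), and Saa4 to Zkscan5, Ccdc28a, AI182371, Gm45724 and C8b (0.860 to 0.823). After removal of the group means at most 1 of the 5 genes was shared with these lists for any of the 10.

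Among 22 other positive acute phase genes, 10 rose and 0 fell after regeneration in control, and 5 rose and 0 fell in HIRA KO. Their median log2 fold change was 0.92 and 0.58. Of all genes tested, 6.04% rose and 4.17% fell in control, and 6.48% and 5.53% in HIRA KO. Orm3, the remaining orosomucoid, rose by 2.98 ± 0.56 (adjusted p = 0.0047) in control and 2.23 ± 0.57 (adjusted p = 0.0225) in HIRA KO. Hpx, which encodes the haem carrier haemopexin, rose by 1.54 ± 0.26 (adjusted p = 0.0013) and 1.47 ± 0.26 (adjusted p = 0.0016). Mt2, a metallothionein, rose by 4.39 ± 1.05 (adjusted p = 0.0187) in control, Fgl1 by 2.02 and 1.89, and Il1rn, the interleukin-1 receptor antagonist, by 1.87 in control. The protease inhibitor gene Serpina3n gave 0.51 ± 0.48 (adjusted p = 0.595) and 0.15 ± 0.48 (adjusted p = 0.882). For HIRA KO against control, 0 of the 22 were called at either time, with a median of -0.29 before and -0.63 after regeneration. The edgeR test gave an unadjusted p under 0.05 for 6 and 13 of them, against 13.2% and 15.8% of all genes. There Serpina3n gave -1.08 ± 0.48 (adjusted p = 0.362) before and -1.44 ± 0.49 (adjusted p = 0.173) after regeneration, and Orm3 -0.53 ± 0.59 (adjusted p = 0.753) and -1.28 ± 0.51 (adjusted p = 0.243). Hpx gave 0.24 ± 0.25 (adjusted p = 0.726) and 0.17 ± 0.25 (adjusted p = 0.796).

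Of 10 negative acute phase genes, 2 fell after regeneration in control and 2 in HIRA KO, and 0 rose. Over all genes tested, 4.17% fell and 6.04% rose in control, and 5.53% and 6.48% in HIRA KO. Rbp4, the plasma retinol carrier, fell by 0.76 on the log2 scale in control (adjusted p = 0.0038) and by 0.72 in HIRA KO (adjusted p = 0.0052). Apoa2 fell by 1.14 in control (adjusted p = 0.0315) and Ttr (transthyretin) by 0.71 in HIRA KO (adjusted p = 0.0427). Alb (albumin) gave 0.30 ± 0.19 (adjusted p = 0.362) in control and -0.06 ± 0.19 (adjusted p = 0.871) in HIRA KO. For HIRA KO against control, edgeR called 0 of these 10 at either time, with 4 and 2 at an unadjusted p under 0.05. Over all genes, 13.2% and 15.8% had such a p. Alb gave 0.41 ± 0.19 (adjusted p = 0.363) before and 0.04 ± 0.19 (adjusted p = 0.946) after regeneration.

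Among 28 genes of acute phase signalling, 3 rose and 3 fell after regeneration in control, and 1 rose and 3 fell in HIRA KO. The shares over all genes tested were 6.04% higher and 4.17% lower in control, and 6.48% and 5.53% in HIRA KO. Of the 6 ligands, Lif rose in control by 1.88 ± 0.51 (adjusted p = 0.0253). Of the 7 receptor genes, Osmr rose in control by 1.03 ± 0.25 (adjusted p = 0.0123) and Tnfrsf1a in both genotypes, by 0.53 and 0.63. Il1rap, the accessory chain of the interleukin-1 receptor, fell by 0.80 in control and by 0.94 in HIRA KO. Il6st, the signalling chain of the interleukin-6 receptor, fell by 0.55 in HIRA KO (adjusted p = 0.0206) and gave -0.21 ± 0.15 (adjusted p = 0.426) in control. Il6ra gave -0.53 ± 0.21 (adjusted p = 0.129) in control and -0.38 ± 0.21 (adjusted p = 0.265) in HIRA KO.

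Of the 11 kinases and transcription factors, Cebpa and Cebpd fell in control, by 0.91 (adjusted p = 0.0110) and by 0.70 (adjusted p = 0.0483). Stat3 gave 0.37 ± 0.16 (adjusted p = 0.152) and 0.34 ± 0.16 (adjusted p = 0.164), and Cebpb -0.62 ± 0.25 (adjusted p = 0.139) and -0.32 ± 0.25 (adjusted p = 0.445). Socs3, the feedback inhibitor of Stat3 signalling, gave -0.36 ± 0.66 (adjusted p = 0.822) in control and -1.15 ± 0.67 (adjusted p = 0.299) in HIRA KO. In HIRA KO against control, edgeR called 0 of the 28 at either time. It gave an unadjusted p under 0.05 for 6 before and 7 after regeneration, against 13.2% and 15.8% of all genes. After regeneration the fitted values of this comparison had a median of -0.16 over the 28 genes, beside 0.022 over all genes tested. All 7 receptor genes were below 0 (median -0.49), whereas 5 of the 6 ligands (median 0.36), 4 of the 11 kinases and factors and 2 of the 4 inhibitors were above 0. Il6st gave -0.49 ± 0.15 (adjusted p = 0.114).

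Markers of other cells moved with regeneration as well. Over all genes tested, 6.04% rose and 4.17% fell in control, and 6.48% and 5.53% in HIRA KO. Of 12 Kupffer cell and macrophage markers 11 rose in each genotype, and their summed level went from 184 to 496 CPM in control and 289 to 309 CPM in HIRA KO before to 823 to 1038 CPM and 853 to 1218 CPM after regeneration. Of 10 hepatocyte markers 3 fell in each genotype (Pck1, Tat and Tdo2), and their sum went from 25949 to 29545 CPM and 29718 to 38182 CPM before to 13823 to 18763 CPM and 18595 to 27227 CPM after regeneration. The sum of 6 cholangiocyte markers was 57.7 to 143 CPM in HIRA KO and 47.8 to 72.4 CPM in control before regeneration. There edgeR called 0 of 6 and gave 4 an unadjusted p under 0.05, against 13.2% of all genes. The part of cell composition in the levels of the acute phase genes was not tested.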

How the data were processed

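Per the study's methods, the authors trimmed reads where needed, used STAR for alignment to mm10 and counted reads per gene with HOMER; the submitters' processing notes also name HTSeq and Cufflinks without a role. The deposited table holds raw read counts per gene. A second table deposited by the authors holds FPKM (fragments per length and library size), with empty cells read as 0; its tool, the annotation release and the strand setting of the counting are not given in the sources used here, although the library kit kept strand. All 10 gene IDs matched GENCODE M21 (GRCm38), version included, as did 54673 of 55421.

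Genes with at least 10 counts over 16 libraries were tested (23018) with the robust quasi-likelihood test of edgeR 4.0.16 (R 4.3.3) on TMM factors (0.915 to 1.10), 4 group means, and Benjamini-Hochberg adjustment over all genes, called at an adjusted p under 0.05. Samples before and after came from the same mice, which the columns do not tie together, so the fit is unpaired. SE is the log2 fold change over the square root of F. The test was checked on simulated data for HIRA KO against control before regeneration only. That simulation gave all genes the same spread and placed no library apart, so it does not cover results that rest on such libraries. Alternatives used DESeq2 1.42.0, limma 3.58.1 on log2(FPKM + 1) and log2(FPKM + 0.1) for genes with a mean FPKM of at least 0.1, other factors, filters and left-out libraries. The genes and lists were chosen with earlier results of these data known. Named were all 10 genes, at most 5 called genes of a list with the largest change, and Orm3, Serpina3n, Hpx, Alb, Stat3, Socs3, Cebpb, Cebpd, Il6ra and Il6st; other genes named from the lists were chosen after their values were seen. Some genes that the rules select are not reported here. Likeness was Pearson's r of log2(CPM + 1) over 16 libraries among genes with a mean of at least 1 CPM. Identities came from global alignments (Biopython), and promoters from RefSeq. Libraries of a group differed beyond counting noise (chi-square per degree of freedom 12.4 to 135 over 24 pairs). Counting error is small at this depth for all 10 genes, and precision is set by the spread between 4 libraries.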

Additional observations from a re-analysis of the deposited data

Results flagged for a closer look

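In a group of 4, a library counted as apart when its gap to the nearest other took a larger share of the group's range than Dixon's critical value for 4 samples allows. Of 40 combinations of gene and group, 6 did. Chance gives about 1 in 20 for independent, normally distributed values. Several of these genes move together and the distribution of CPM was not tested, so that share is only a rough guide. Control before library 3 was apart for 3 genes, as the highest library for Saa1 (1400 CPM), Saa2 (1025 CPM) and Lcn2 (118 CPM). HIRA KO after library 2 was apart as the lowest library for Orm1 (1262 CPM) and Apcs (133 CPM). Control after library 1 was the highest for Orm2 (1141 CPM). No cause of these values was tested. The interaction of genotype and time passed the test for none of the 10 genes in edgeR.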

How the results depend on the processing

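No paired analysis was possible because the columns carry neither the mouse nor the replicate numbers of the labels; fits by deletion approach were not run for the same reason. Under DESeq2, 1 gene was called lower in HIRA KO after regeneration and 8 genes rose with regeneration in HIRA KO, against 0 and 5 by edgeR. DESeq2 called more genes in general, 419 lower and 1862 higher in these comparisons, against 67 and 1492 by edgeR. For DESeq2 that is 2.73% of 15354 and 10.4% of 17985 genes with an adjusted p. For edgeR it is 0.291% and 6.48% of 23018. Without HIRA KO libraries 1 and 2, chosen after seeing the data, 2 genes (Orm1 and Orm2) rose in HIRA KO, with fewer libraries compared. There the sign turned for Saa3 (HIRA KO against control -0.80 before and -0.23 after regeneration), Saa4 (regeneration in HIRA KO 0.018) and, in the interaction of genotype and time, Orm1 (0.017), Orm2 (0.068) and Hp (-0.16). In limma on log2(FPKM + 1) and log2(FPKM + 0.1) the interaction turned to -0.29 and -0.28 for Saa1, -0.022 and -0.0087 for Saa2 and -0.50 and -0.45 for Lcn2. The causes were not tested. Leaving out 1 library gave 3 to 7 genes called higher in control regeneration, and 0 to 1 called lower both in HIRA KO after regeneration and in HIRA KO regeneration. Over those fits HIRA KO against control before regeneration ran from -2.75 to 0.052 for Saa1, -0.15 to 0.65 for Saa3, -0.47 to 0.029 for Orm1, -2.25 to 0.75 for Lcn2 and -0.064 to 0.49 for Apcs. Saa4 in control regeneration ran from -0.041 to 0.35. The interaction ran from -1.46 to 1.34 for Saa1, -1.64 to 1.94 for Saa2, -0.48 to 0.0079 for Orm1, -1.13 to 0.053 for Orm2, -1.85 to 1.15 for Lcn2 and -0.25 to 0.34 for Hp. Orm1, Orm2 and Apcs were called with regeneration in both genotypes in all 8 such fits and in all 10 planned settings with fold changes. In the setting that summed near-identical genes, the sum of Orm1, Orm2 and Orm3 stood for both Orm1 and Orm2, so neither had a value of its own there. Lcn2 in control was lost with only the groups compared (adjusted p = 0.0896), and Hp with no filter (0.102 in control, 0.0847 in HIRA KO) or, in HIRA KO, with only the groups compared (0.0913).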
